A study of Mus musculus with 21 samples.

Results

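GATA4 occupancy was set against open chromatin in the endothelium of mouse heart ventricles at E12.5, a midgestation stage. Open regions were those with an ATAC peak in both libraries made from endothelial cells (EC) sorted by Tie2-Cre labelling, and they numbered 101038 of 136513 merged ATAC regions and of 175778 merged regions over all peak lists used. They were split by overlap of at least 1 bp with GATA4 peaks from the Tie2-Cre lineage. Regions overlapping a GATA4 region found in at least 2 of 3 libraries (open with GATA4) numbered 12795, which was 12.7% of all open regions. Regions with no GATA4 peak in any of the 3 libraries (open without GATA4) numbered 77300, or 76.5%. The other 10943 met a GATA4 peak of 1 library only and are given apart. From the GATA4 side, 14228 regions were found in 2 or 3 of the libraries. Of these, 13021 were open (91.5%), 457 met an ATAC peak of 1 library only, and 750 had no ATAC peak in either library (GATA4, not open; 5.27%).

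GATA4 occupancy was measured by bioChIP, in which a tagged GATA4 carries biotin wherever Cre has acted and is recovered on streptavidin beads. Tie2-Cre was the driver for the 3 endothelial libraries and Tnnt2-Cre for 3 cardiomyocyte-lineage libraries used here for comparison, each from 15 to 20 ventricles. The 2 EC ATAC libraries came from 40000 sorted cells each of embryos with Tie2-Cre and the Rosa26fsTRAP reporter, and the 2 EC RNA libraries from 60000 such cells each. Tie2-Cre is also active in blood cells. The 3 cardiomyocyte (CM) RNA libraries carry no further genotype. A further 6 ATAC libraries of 20000 sorted cells each came from embryos labelled Gata4 ko or Gata4 het, 3 of each; all 6 shared a Cdh5-driven CreERT2, the Rosa26mTmG reporter and 1 mg of tamoxifen at embryonic day 9.5, and the labels do not spell out the alleles. The labels do not say if replicates were independent litters, so a p-value reflects the spread between these samples, which may be technical.

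GATA4 is a zinc-finger transcription factor that binds a short DNA motif with the core GATA, often next to other cardiac factors. In the heart it is needed in muscle and in endocardium, where it acts in the formation of the valve cushions. ATAC inserts a transposase into accessible DNA, so a peak marks chromatin that is not tightly packed, at promoters as well as at distal elements.

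The promoters of named genes that lay in open regions with GATA4 show the DNA behind these classes. Each window of 300 bases runs 5′ to 3′ on the gene's own strand, from 250 bases before the transcription start to 50 after it, as RefSeq gives it for GRCm38.p6, the assembly also called mm10. The Smad5 and Runx1 windows lie at RefSeq starts inside the gene. Distances elsewhere use the outermost start, which was at 56703010 for Smad5 and at 92826074 for Runx1. Capitals mark GATAA or its reverse complement TTATC. The first 5 were chosen because they hold the motif and belong to endothelial, BMP signalling, blood and muscle genes, and the last because it holds none.

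Tek, chr4:94739039-94739338, plus strand: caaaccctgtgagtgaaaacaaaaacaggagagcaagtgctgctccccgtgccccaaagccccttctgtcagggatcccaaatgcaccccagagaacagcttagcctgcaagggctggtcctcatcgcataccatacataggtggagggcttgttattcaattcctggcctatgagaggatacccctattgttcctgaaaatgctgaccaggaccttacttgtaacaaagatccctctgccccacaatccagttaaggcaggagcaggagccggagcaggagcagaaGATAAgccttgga
Tal1, chr4:115056176-115056475, plus strand: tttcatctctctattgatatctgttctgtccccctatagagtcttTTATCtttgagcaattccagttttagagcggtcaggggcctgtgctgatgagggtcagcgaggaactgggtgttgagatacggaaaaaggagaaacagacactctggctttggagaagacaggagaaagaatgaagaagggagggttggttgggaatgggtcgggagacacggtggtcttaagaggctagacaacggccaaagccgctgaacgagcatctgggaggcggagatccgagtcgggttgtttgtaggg
Smad5, chr13:56703418-56703717, plus strand: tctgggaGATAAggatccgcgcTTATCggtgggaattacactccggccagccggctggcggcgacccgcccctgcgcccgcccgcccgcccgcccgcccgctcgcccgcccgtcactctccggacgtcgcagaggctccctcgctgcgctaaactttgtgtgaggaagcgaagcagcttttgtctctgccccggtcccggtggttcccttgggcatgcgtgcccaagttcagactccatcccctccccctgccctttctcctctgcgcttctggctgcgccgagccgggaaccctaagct
Tnnt2, chr1:135836084-135836383, plus strand: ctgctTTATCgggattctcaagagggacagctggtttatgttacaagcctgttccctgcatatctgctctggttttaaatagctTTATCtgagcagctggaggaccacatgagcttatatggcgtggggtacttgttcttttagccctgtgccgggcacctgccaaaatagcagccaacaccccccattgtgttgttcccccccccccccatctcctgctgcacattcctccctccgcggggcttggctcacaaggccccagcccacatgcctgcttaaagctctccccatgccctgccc
Epor, chr9:21963527-21963826, minus strand: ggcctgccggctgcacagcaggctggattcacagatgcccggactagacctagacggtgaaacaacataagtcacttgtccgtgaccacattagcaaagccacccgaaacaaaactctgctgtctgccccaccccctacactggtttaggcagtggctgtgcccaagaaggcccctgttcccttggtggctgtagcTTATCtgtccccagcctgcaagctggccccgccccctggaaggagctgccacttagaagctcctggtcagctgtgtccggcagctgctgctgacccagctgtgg
Runx1, chr16:92697280-92697579, minus strand: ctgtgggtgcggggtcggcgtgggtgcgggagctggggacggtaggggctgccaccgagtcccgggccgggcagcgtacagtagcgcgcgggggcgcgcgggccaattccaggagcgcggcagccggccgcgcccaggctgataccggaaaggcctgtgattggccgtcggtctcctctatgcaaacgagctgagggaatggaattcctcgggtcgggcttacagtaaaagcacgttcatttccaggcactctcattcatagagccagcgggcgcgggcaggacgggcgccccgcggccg

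Tek encodes a receptor for angiopoietins, Tal1 a helix-loop-helix factor of blood and endothelium, and Smad5 a transducer of BMP signals. Tnnt2 encodes cardiac troponin T, Epor the erythropoietin receptor, and Runx1 a factor of blood cell formation. At Smad5 the motifs were centred 241 and 226 bases before the start, and the GATA4 summits of replicates 1 and 3 lay 220 and 219 bases before it. At Tnnt2 the motifs were centred 243 and 164 bases before the start, with GATA4 summits 185 and 205 bases before it. At Tek the motif was centred 39 bases after the start and the GATA4 summits of the 3 replicates lay 96, 56 and 68 bases after it. At Tal1 the summits lay 281 and 230 bases after the start, so the motif shown was 433 bases from the nearer summit. Of 8 such promoters of named genes, 6 held the motif, which says only that these letters are in the window.

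Peak lists differed in length between libraries. The Tie2-Cre GATA4 lists held 17682, 2734 and 25936 peaks in replicates 1 to 3, so a region in at least 2 lists was nearly always in lists 1 and 3: they held 99.1% and 99.7% of open regions with GATA4, and list 2 held 19.3%. A missing peak does not show that a site was closed or unbound. In RNA, Cdh5, which encodes VE-cadherin, had 259 and 252 RPKM in EC, against 16.2, 18.6 and 20.8 in CM. The 24 sarcomere genes summed to 1143 and 1136 CPM, a count scaled by library size, in EC, against 1.17e+05, 1.17e+05 and 1.26e+05 in CM. All 16 cushion mesenchyme genes were higher in EC and summed to 4109 and 4080 CPM there, against 1662, 1712 and 1691 in CM. Whether the sorted cells included mesenchyme was not tested. The 16 measured blood and macrophage genes summed to 63.1 and 56.8 CPM in EC, against 3268, 2539 and 1414 in CM. Globin genes led that sum, with Hbb-y at a log2 fold change of -7.49. Of the 16 genes, 8 were higher in EC and 5 lower (median 0.87), against 37.5% and 40.2% of all tested genes. Among the higher was Ptprc (4.02), a general leukocyte marker, at low levels of 0.26 and 0.22 RPKM in EC. In CM its levels were 0.0257, 0.0083 and 0.0079 RPKM.

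Open regions with GATA4 were wider than those without, but a wide region meets an overlap of 1 bp more easily, so the rule itself favours width. When open regions were cut by width into 10 classes, 2.21% of the narrowest and 24.9% of the widest class had GATA4. The median width was 979 bp with GATA4 (quartiles 660 and 1465.5), 883 bp where only 1 library had a peak, and 529 bp without GATA4 (quartiles 370 and 821). Peaks meeting a GATA4 peak were wider than peaks meeting none in each pair of libraries. Among the peaks of ATAC replicate 2, median width was 857, 972.5 and 828 bp for those meeting a peak of GATA4 replicates 1, 2 and 3, against 387 bp for those meeting none. In ATAC replicate 3 it was 879, 999 and 853 bp, against 394 bp. The difference of medians was 450 bp and lay between 441 and 605 bp (SD 69.7) over these 6 pairs, which share libraries. Only 36 open regions exceeded 10 kb. Exactly 1 GATA4 region lay in 98.3% of open regions with GATA4, and 212 of the 12795 held 2.

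**Figure D1:**
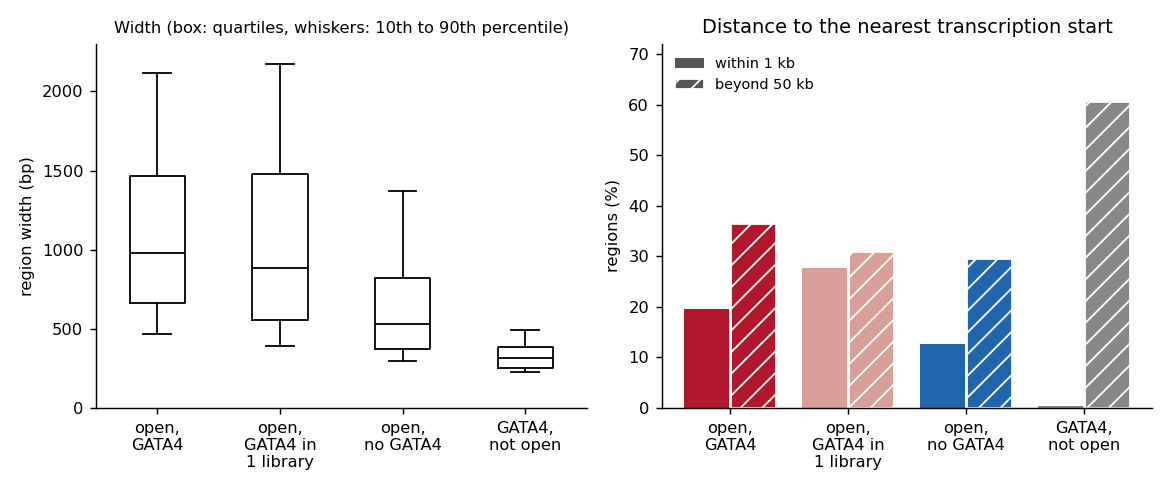
Left: width in bp of open regions with GATA4, open regions with a GATA4 peak in 1 library, open regions without GATA4, and GATA4 regions that were not open (line, median; box, quartiles; whiskers, the 10th and 90th percentiles); the medians were 979, 883, 529 and 314 bp. Right: percent of each class within 1 kb (plain bars) and beyond 50 kb (hatched bars) of the nearest transcription start; 0.4% of GATA4 regions that were not open lay within 1 kb and 60.5% beyond 50 kb.

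Distance to the nearest transcription start moved in both directions at once. Within 1 kb of a start lay 19.5% of open regions with GATA4 (2499 regions), 27.7% of those with a peak in 1 library and 12.7% of those without GATA4 (9818 regions). Yet the median distance was longer with GATA4, at 27616 bp, than without, at 21200.5 bp, and 36.3% with GATA4 and 29.5% without lay beyond 50 kb. Thus GATA4 was least frequent at intermediate distances. The share of open regions with GATA4 was 16.3% within 1 kb of a start, 7.90% at 1 to 10 kb, 11.7% at 10 to 50 kb, 13.97% at 50 to 100 kb and 16.1% beyond 100 kb. Exons held 25.4% of regions with GATA4 and 20.4% without, introns 31.9% and 36.7%, and the space between genes 42.7% and 42.9%.

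The strength of the ATAC peak went along with both features. Strength was the percentile of −log10 p within the peak's own list, with 100 for the strongest, averaged over both ATAC lists. Its median was 82.7 with GATA4, 77.1 with a peak in 1 library and 50.8 without GATA4. The open regions were ordered by strength and cut into 10 classes of equal number, from 1 (weakest) to 10 (strongest). The share with GATA4 was 2.10% in class 1, 7.16% in class 5 and 32.0% in class 10. Among regions farther than 1 kb from a start it was 2.18% in class 1 and 49.3% in class 10, and among regions within 1 kb it was 0.709% and 24.2%. At equal ATAC strength, then, the distal regions were more often with GATA4 than the promoter regions, in each of the 10 classes.

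Within strength classes the difference at promoters turned round. In class 1, 1.89% of regions with GATA4 and 5.76% without lay within 1 kb of a start. In class 5 these shares were 2.63% and 5.13%, in class 8 6.47% and 16.3%, and in class 10 52.2% and 76.0%. The share near a start was lower with GATA4 in all 10 classes, and the mean difference over classes was -7.55 percentage points, against 6.83 without regard to strength. In single pairs of libraries the mean over classes lay between -9.99 and -4.67 (SD 2.10, 6 pairs). Width differences were smaller within classes. The median was 406 bp with GATA4 and 381 bp without in class 1, 569 and 497 bp in class 5, 659 and 564 bp in class 6, and 1659 and 1773 bp in class 10. The mean difference over classes was 43.1 bp. The comparison within strength classes was chosen after seeing the data.

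**Figure D2:**
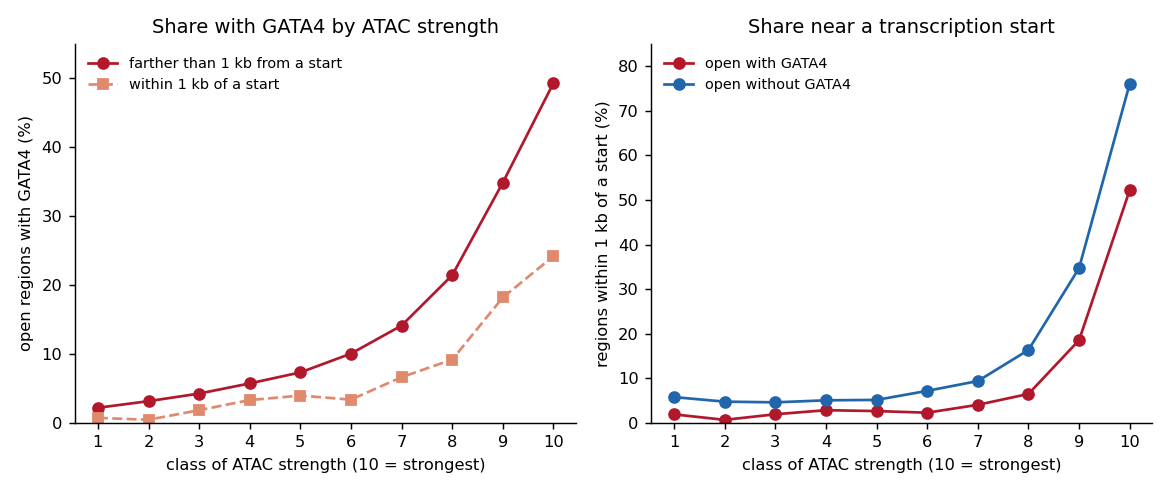
Left: percent of open regions with GATA4 in each of 10 classes of ATAC strength, for regions farther than 1 kb from a transcription start (circles) and within 1 kb (squares); class 10, the strongest, reached 49.3% and 24.2%. Right: percent of regions within 1 kb of a start in each class, for open regions with GATA4 and open regions without GATA4; the curve with GATA4 lies below the other in all 10 classes, at 52.2% and 76.0% in class 10.

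The pooled promoter difference depended on the lists, whereas the difference within strength classes kept its direction in each alternative that gave a value. With lists of equal length the pooled difference was -1.93 percentage points, and without GATA4 replicate 3 it was -0.74. With a fixed window reaching 100 bp to each side of the strongest ATAC summit in place of the merged region, an alternative chosen after seeing the data, it was 0.775. The mean difference within classes was -10.3, -11.6 and -9.42 in these 3 alternatives. In these fixed windows the mean width difference within classes was -5.20 bp.

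The strength of the GATA4 peak was linked to distal position as well. The 14228 GATA4 regions were ordered by the mean percentile of −log10 p over the 3 lists, an absent peak counting as 0. Cut into 10 classes, 24.5% of the weakest class and 10.5% of the strongest lay within 1 kb of a start. Open regions with a GATA4 peak in 3 libraries (2337) had 13.3% within 1 kb of a start and a median distance of 37571 bp, and those with a peak in 2 (10458) had 20.9% and 25770 bp. Chromatin was open at 86.3% of the weakest and 96.9% of the strongest class of GATA4 regions. It was open at 95.4% of GATA4 regions found in 3 libraries and at 90.7% of those found in 2.

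Distances between GATA4 and ATAC summits were measured only for GATA4 peaks that overlapped an open region with GATA4. That rule itself favours short distances, and the distance to be had from overlap alone was not computed. In the 6 pairs of libraries the median distance from the summit of such a peak to the nearest ATAC summit was 78 to 94 bp. Within 100 bp lay 52.7% to 57.6% of summits, and within 250 bp 81.5% to 83.2%. The median was longest for GATA4 replicate 2, the shortest list, in both ATAC replicates (93 and 94 bp), although its share within 250 bp was also the highest (83.2% and 82.6%).

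**Figure D3:**
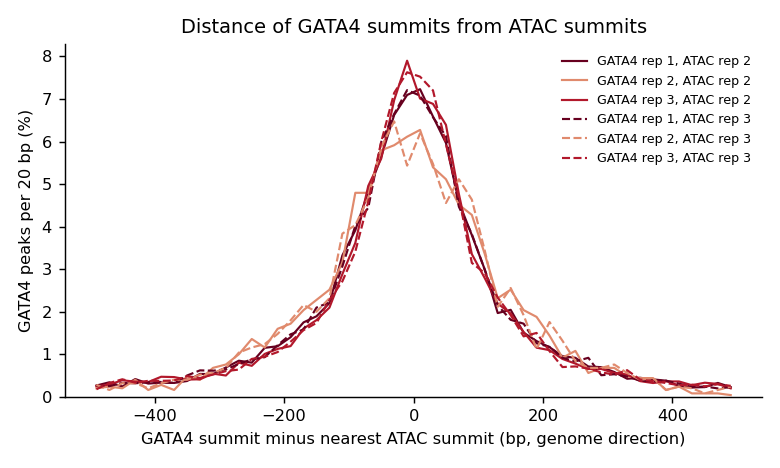
Distance in bp from the summit of each GATA4 peak in an open region with GATA4 to the nearest ATAC summit (x axis) against the percent of GATA4 peaks per 20 bp (y axis), for the 6 pairs of a GATA4 library (colours) and an ATAC library (solid, replicate 2; dashed, replicate 3). All 6 curves peak near 0, and medians of the absolute distance were 78 to 94 bp.

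The promoter and distal regions with GATA4 differed in how often they also held a GATA4 peak of the cardiomyocyte lineage. Such a peak counted anywhere in the open region. The regions near a start were wider, with a median of 1765 bp against 861 bp, so they meet a peak more easily. Tnnt2-Cre GATA4 peaks of 2 or 3 libraries lay in 74.3% of the 2499 regions within 1 kb of a start and in 41.8% of the 10296 farther away. No Tnnt2-Cre peak lay in 10.9% of the set near a start and in 47.1% of the distal set. Over all open regions with GATA4 these shares were 48.1% and 40.1%, against 4.65% and 89.4% of open regions without GATA4.

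The 20 strongest regions with GATA4 were mostly strong in the cardiomyocyte lineage too, but few of those ranked just below them were. Of the 20 open regions with the highest mean Tie2-Cre percentile, 18 held a peak in the top 1% of all 3 Tnnt2-Cre lists. Among the 50 highest the number was 22, and among the 100 highest it was also 22. In each of these sets 9 held a peak in the top 1% of all 14 lists used, the ATAC lists of ko and het cells included. Among those 9 were distal regions whose nearest starts were those of 4933422A05Rik, Chl1, Lrrc4c, Ly6c2 and Pex2. Outside those 9, a region at Mir101c spanned 38512 bp, and a region of 6032 bp lay on Rn45s, the ribosomal RNA precursor. Reads of repeated sequence can be shared among copies, so values at such regions are uncertain. Without the open regions in the top 1% of every Tnnt2-Cre list, an alternative chosen after seeing the data, 12.6% of open regions had GATA4 and the mean promoter difference within strength classes was -7.53 percentage points.

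Tek stood apart among the strongest regions. Its open region spanned 12216 bp (chromosome 4, 94737490 to 94749705, mm10) across the transcription start. The Tie2-Cre GATA4 peaks there reached percentiles of 99.96, 99.41 and 99.96 in replicates 1 to 3, whereas the Tnnt2-Cre lists gave 22.6, no peak and 64.1. ATAC peaks covered 12174 and 12129 bp of it in Tie2-Cre EC. In the Cdh5-CreERT2 cells they covered 2232, 1393 and 1836 bp in ko and 1988, 1894 and 2077 bp in het. All 6 libraries of the Cdh5-CreERT2 cells were thus far below both Tie2-Cre libraries. The Tie2-Cre transgene carries regulatory DNA of Tek, and its part in these peaks was not tested. Tek RNA was 189 and 197 RPKM in EC and 46.3, 46.0 and 36.4 RPKM in CM.

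A further 6 strong distal sites were chosen after the values were seen, as the strongest beyond 1 kb that were within 50 kb of a start and not in the top 1% of every Tnnt2-Cre list. A region of 1297 bp lay between genes at 5689 bp from St6gal1, a sialyltransferase gene, and had percentiles of 99.6, 98.3 and 99.8 and no Tnnt2-Cre peak (chromosome 16, 23217755 to 23219051). An intronic region 28450 bp from the start of Lyl1, which encodes a relative of TAL1, had 99.7, 98.1 and 99.9, against 76.5, no peak and 9.66 in Tnnt2-Cre (chromosome 8, 84729907 to 84732033). The other 4, nearest Cdk8, Satl1, Krtap5-4 and Apbb1ip, had peaks in all 3 libraries of each lineage. RNA was higher in EC at St6gal1 (log2 fold change 2.69), Lyl1 (2.53) and Apbb1ip (5.02), Cdk8 (0.12) did not pass the test (edgeR adjusted p = 0.207), and Satl1 and Krtap5-4 were not tested.

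The 750 GATA4 regions that were not open differed in position and size from those in open chromatin. Only 3 of them, 0.4%, lay within 1 kb of a start, against 18.2% of the GATA4 regions in open chromatin. Their median distance to a start was 72633 bp, against 27701 bp, and 60.5% against 36.3% lay beyond 50 kb. Exons held 2.4% of them and 16.0% of the open ones. They were narrower, with a median of 314 bp against 388 bp, and weaker: the median percentile was 43.8, 44.6 and 56.4 in GATA4 replicates 1 to 3, against 59.4, 52.1 and 70.4. Tnnt2-Cre peaks of 2 or 3 libraries lay in 33.5% of them, against 46.8% of the open ones.

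Few of the regions that were not open in Tie2-Cre cells were open in the other endothelial libraries. ATAC peaks lay in 14.7%, 8.93% and 2.13% of them in ko replicates 2 to 4 and in 14.8%, 8.40% and 7.07% in het. At GATA4 regions in open chromatin these shares were 89.3%, 86.7% and 75.3% in ko and 90.3%, 87.8% and 80.1% in het. The strongest region that was not open lay 3070 bp upstream of Mdfic (chromosome 6, 15716992 to 15717591, 600 bp). It had GATA4 percentiles of 98.8, 95.0 and 99.1 in the Tie2-Cre and 98.0, 91.9 and 97.0 in the Tnnt2-Cre lists, and no peak in any of the 8 ATAC lists. The next 4, nearest Plekha5, C330004P14Rik, Msrb2 and Redrum, had Tnnt2-Cre peaks as well, in 3, 3, 2 and 3 libraries. By contrast, the 5 strongest open regions without GATA4, nearest Col19a1, 1700019M22Rik, Myom2, Ripk2 and Desi2, had ATAC percentiles above 99.9 and Tnnt2-Cre peaks in 0, 0, 1, 2 and 0 libraries.

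Cells labelled Gata4 ko were then compared with cells labelled Gata4 het at these regions. The share of open regions with GATA4 that held an ATAC peak was 91.0%, 88.6% and 77.5% in ko replicates 2 to 4, against 92.2%, 89.5% and 82.8% in het. At open regions without GATA4 it was 57.1%, 54.5% and 38.5% in ko, against 59.3%, 57.0% and 44.1% in het. Replicate 4 was lowest in both genotypes, and the ranges of ko and het overlapped in both classes. At each replicate number the share was lower in ko than in het, in both classes. The question was whether the gap between the classes was smaller in ko. It was 34.0, 34.1 and 39.0 percentage points in ko and 32.9, 32.5 and 38.7 in het.

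The gap averaged 35.7 ± 2.85 points in ko and 34.7 ± 3.50 in het (SD, n = 3 each), a difference of 0.959 (exact permutation test, two-sided p = 0.5, Benjamini-Hochberg 0.6 over 3 measures). The difference was -2.45 points at regions with GATA4 and -3.41 at regions without (exact permutation p = 0.6 for each, adjusted 0.6). With 3 libraries against 3 the smallest p is 0.1, so this design cannot pass 0.05. These tests took the libraries as unpaired, so the spread between replicate numbers entered them. Between same-numbered libraries the gap in ko minus that in het was 1.04, 1.61 and 0.22 points in replicates 2, 3 and 4. Peak lists were shorter in ko, at 74164 ± 16484 peaks, than in het, at 80046 ± 11774, a difference that was itself within the spread (exact permutation p = 0.6). The sign of the gap difference changed without ko replicate 4 (-0.69) or het replicate 3 (-0.17), and with lists of equal length (-0.25). The samples include no RNA of ko or het cells, so the loss of Gata4 itself was not checked.

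Region by region, presence differed between the genotypes at few sites. Peaks in all 3 het and no ko library marked 25 open regions with GATA4 (0.195%) and 273 without (0.353%). The opposite pattern marked 10 (0.0782%) and 104 (0.135%). All 6 libraries had a peak at 71.3% of regions with GATA4 and at 29.0% without, and none had one at 2.59% and 25.7%. The same order held within classes of ATAC strength: in class 1 the mean share with a ko peak was 28.1% with GATA4 and 13.1% without, and with a het peak 33.5% and 15.1%.

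**Figure D4:**
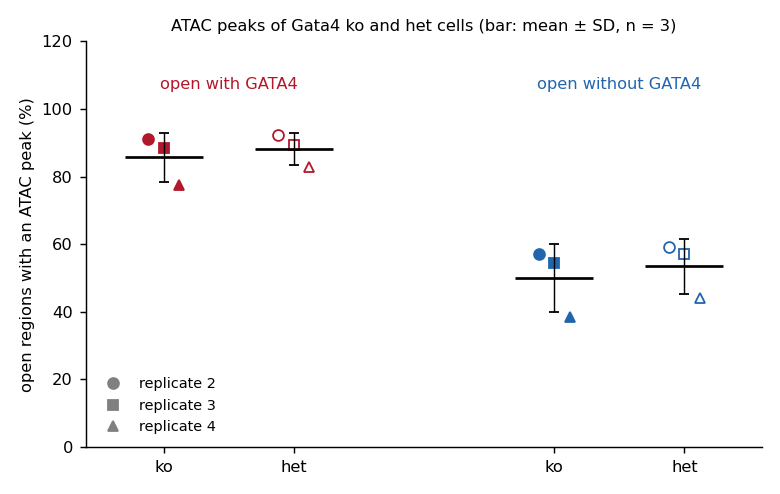
Percent of open regions with an ATAC peak in each library of Gata4 ko (filled symbols) and Gata4 het cells (open symbols), for open regions with GATA4 (left pair) and without GATA4 (right pair); symbols are replicates, bars are mean ± SD (n = 3). Values lie between 77.5% and 92.2% with GATA4 and between 38.5% and 59.3% without, and ko and het overlap in both pairs.

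Genes near the regions were compared in RNA. Of 24078 located genes, 50.1% had an open region with GATA4 within 50 kb of the start, and 20.7% had open regions without GATA4 only. In RNA, 37.5% of the 14851 tested genes were higher and 40.2% lower in EC than in CM (edgeR quasi-likelihood test, Benjamini-Hochberg adjusted p below 0.05). Among the 8974 tested genes with an open region with GATA4, 41.7% were higher and 37.1% lower in EC. Among the 2383 with open regions without GATA4 only, 27.5% were higher and 47.5% lower. Median RNA was 7.83 and 7.72 RPKM in the EC libraries for the first set and 2.31 and 2.25 RPKM for the second. In bulk RNA, fewer cells of a type and less RNA per cell cannot be told apart. The count headers name the EC and CM libraries in different patterns, and the labels do not say if they were made together. Rn45s, the ribosomal RNA precursor, had 56597 and 52469 CPM in EC, against 1189, 2018 and 1932 in CM. A difference between the 2 sets of libraries cannot be told apart from one between cell types.

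The share of genes higher in EC grew with the number of open regions with GATA4. It was 37.9% with 1 such region, 44.3% with 2, 50.1% with 3, 54.1% with 4 and 58.2% with 5 or more (39 of 67 tested genes). Genes with many GATA4 sites also had more open regions of any kind. Among genes with 1 or 2 open regions in all, 23.0% of those with GATA4 and 20.2% of those without were higher in EC. The shares were 25.9% and 23.1% among genes with 3 or 4 open regions and 34.9% and 33.1% among genes with 5 or 6. They were 37.6% and 27.3% among genes with 7 or 8 open regions and 43.3% and 41.8% among genes with 9 to 12. Among genes with 13 or more, the shares were 53.8% and 42.1%, with 114 genes tested in the set without. Median RNA was higher with GATA4 in each of 6 such classes, in EC and in CM alike. Among genes with 1 or 2 open regions it was 6.82 and 7.07 RPKM with GATA4 and 0.882 and 0.859 RPKM without in EC, and 8.91, 8.43 and 8.74 RPKM with GATA4 and 1.69, 1.65 and 1.69 RPKM without in CM.

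At the start itself the classes differed less in direction. An open region lay within 1 kb of the start of 66.3% of genes, and 12.1% of genes had one with GATA4 there. Of the tested genes in that set 40.2% were higher and 38.2% lower in EC, against 37.8% and 39.6% of genes whose open start had no GATA4. GATA4 regions that were not open lay within 50 kb of 500 genes, or 2.08%. Of the 338 tested among them, 41.7% were higher and 37.3% lower in EC.

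Gene lists were read against genes with a like number of open regions. Their RNA calls stand beside those of all tested genes, of which 37.5% were higher and 40.2% lower in EC. An open region with GATA4 lay near 59.2% of all genes with 7 or 8 open regions, 69.6% of those with 9 to 12 and 79.6% of those with 13 or more. Of the 24 endothelial surface and junction genes, 21 had an open region with GATA4 within 50 kb and 12 had at least 3, a number reached by 6.87% of all genes. They also had a median of 13 open regions each, against 6 for all genes. Counted by region, 16.9% of the open regions near these genes had GATA4, against 11.05% near all genes. All 24 were higher in EC. Ptprb, an endothelial phosphatase gene, had 5 open regions with GATA4 of 13 and RNA of 14.4 and 15.6 RPKM in EC, against 1.72, 1.89 and 1.98 in CM. Eng, which encodes a TGF-beta co-receptor, had 5 of 29; the strongest lay 24301 bp upstream, with GATA4 percentiles of 99.2, 77.7 and 98.6. Vwf, the gene of von Willebrand factor, had 4 of 15.

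Of the 23 endothelial transcription factor genes 18 (78.3%, with a median of 13 open regions) had an open region with GATA4, near the share of all genes with as many, and all 23 were higher in EC. Fli1, an ETS factor gene, had 4 of 19 open regions with GATA4, and Bcl6b, Sox7 and Klf2 had 3 each. Genes of the list with none included Erg, Sox17 and Gata3. The endocardial list had 16 of 20 with GATA4 (median of 12 open regions). By region its share was 11.3%, against 11.05% near all genes. In RNA, 18 of its genes were higher and 2 lower in EC, against 37.5% and 40.2% of all tested genes. Its members Hapln1 and Has2, which act in the hyaluronan matrix of the cushions, had 3 each of 8 and 7 open regions. Cushion mesenchyme genes had GATA4 near 9 of 16 (56.25%, with a median of 8.5 open regions). The share was 50.1% over all genes and 59.2% over those with 7 or 8 open regions. All 16 cushion genes were higher in EC. Pdgfra, Tbx2 and Has2 had 3 regions each, whereas Twist1, Snai2 and Zeb1 had none.

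Among signalling genes the BMP and TGF-beta list had 18 of 22 with GATA4 (81.8%, with a median of 10 open regions). The share was 69.6% over all genes with 9 to 12 open regions. Of this list, 16 genes were higher and 2 lower in EC, against 37.5% and 40.2% of all tested genes. Smad6, which encodes an inhibitor of BMP signalling, had 8 open regions with GATA4 of 34, the most of any gene. The strongest of the 8 lay 22837 bp upstream of its start, with percentiles of 99.2, 58.5 and 99.5, and had peaks in all 3 Tnnt2-Cre lists. Smad6 RNA was 57.2 and 57.0 RPKM in EC and 22.2, 20.8 and 18.7 in CM (log2 fold change 1.47, SE 0.08, adjusted p = 3.92e-08, edgeR). The genes next in number, with 7 each, were Lad1, Zfpm1, 1700055C04Rik and 1110036E04Rik; 1700055C04Rik and 1110036E04Rik lie beside Smad6, so their windows share regions.

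Bmpr2, a BMP receptor gene, and Smad5 had 4 regions each, of 8 and 16. The Notch list had 13 of 16 genes with GATA4 (81.25%, with a median of 13.5 open regions), near the 79.6% of all genes with 13 or more. It had the lowest share by region, 7.80%, and Notch1 had 3 of 30. Its strongest region lay 25767 bp downstream of the start, with percentiles of 95.7, 80.6 and 98.8. In the VEGF and angiopoietin list 11 of 17 had GATA4 (64.7%, with a median of 10 open regions), against 69.6% of all genes with 9 to 12. Of this list, 11 genes were higher and 5 lower in EC, against 37.5% and 40.2% of all tested genes. The receptor genes Tek, Aplnr, Nrp1 and Flt1 had 4, 4, 3 and 3 regions, the ligand genes Vegfb and Pgf had 1 each, and 6 members, Vegfa, Vegfc, Angpt1, Angpt2, Sema3c and Apln, had none.

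Of the 11 GATA genes and cofactors 8 had an open region with GATA4 (72.7%, with a median of 13 open regions). The share was 79.6% over all genes with 13 or more open regions. Zfpm1, which encodes the GATA cofactor FOG1, had 7 of 21, and Tal1 and Ldb1 had 3 each of 12 and 13. Gata6, Gata2, Gata5 and Lmo2 had 2 each and Gata4 had 1 of 25, 9959 bp upstream, with percentiles of 48.2, none and 85.9. Gata1, Gata3 and Zfpm2 had none. For Gata3 the open regions numbered 14, of which 13 were without GATA4, and RNA was 9.36 and 7.59 RPKM in EC. Of the list, 9 genes were higher in EC, 1 (Zfpm2, log2 fold change -0.54) was lower, and Gata1 (-0.10) did not pass the test. Over all tested genes 37.5% were higher and 40.2% lower.

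Genes of other cell types carried GATA4 regions in the Tie2-Cre lineage as well. Of the 18 blood and macrophage genes 11 had one (61.1%, with a median of 7 open regions), near the 59.2% of all genes with 7 or 8. Epor had 5 of 14 at an RNA level of 4.38 and 4.80 RPKM in EC, against 0.421, 0.463 and 0.344 in CM. Of the 18 epicardial, fibroblast and mural genes 11 had one (61.1%, with a median of 7.5 open regions), near the same 59.2%. Of that list, 6 genes were higher and 10 lower in EC (median log2 fold change -1.35), against 37.5% and 40.2% of all tested genes. Lum (4 of 7) and Col3a1 (3 of 8) were higher in EC and Dcn (2 of 4) was lower. Of the 24 sarcomere genes 16 (66.7%, with a median of 11.5 open regions) had one, near the share of all genes with as many, and all 24 were lower in EC. Tnnt2 and its neighbour Tnni1 had 6 each, sharing a region 34557 bp upstream of Tnnt2 with Tie2-Cre percentiles of 99.7, 96.4 and 99.8 and peaks in all 3 Tnnt2-Cre lists. Tnnt2 RNA was 63.6 and 66.2 RPKM in EC, against 3706, 4351 and 4790 in CM. Of the 20 cardiomyocyte transcription factor genes 16 had one (80%, with a median of 9.5 open regions), against 69.6% of all genes with 9 to 12. Of the 19 tested, 4 were higher and 15 lower in EC. Prox1 and Hopx had 3 regions each and Mef2c had 2. In these 4 lists 12.3% to 16.9% of open regions had GATA4, against 11.05% near all genes.

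The GATA motif was more frequent in promoters with GATA4 than in other open promoters. Of 32817 RefSeq promoter windows of 300 bases, 2050 overlapped a GATA4 region in an open region, and 10307 lay in open regions without GATA4. The letters GATAA, on either strand, were in 32.9% of those with GATA4 and in 13.2% of those without, against 25.4% of all windows. AGATAA, which contains GATAA, was in 16.0% and 5.07%, against 11.2% of all. The ETS-type letters GGAAG were in 77.6% and 73.6%, against 71.4% of all windows, CCAAT in 36.6% and 36.4%, against 37.4%, and CACGTG in 9.37% and 9.92%, against 7.15%.

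Base composition moves with these classes: median G+C was 59.0% with GATA4, 60.7% in open regions without GATA4 and 46.3% in the 15160 windows with no ATAC or GATA4 peak, of which 35.6% held GATAA. Within classes of G+C the difference between open promoters was present throughout. GATAA was in 61.1% with GATA4 and 36.4% without below 45% G+C, in 47.7% and 24.8% from 45% to 55%, in 30.9% and 10.7% from 55% to 65%, and in 15.2% and 3.73% above 65%. These are descriptions of letters in fixed windows, and the distal regions could not be searched because no genome sequence was used here.

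**Figure D5:**
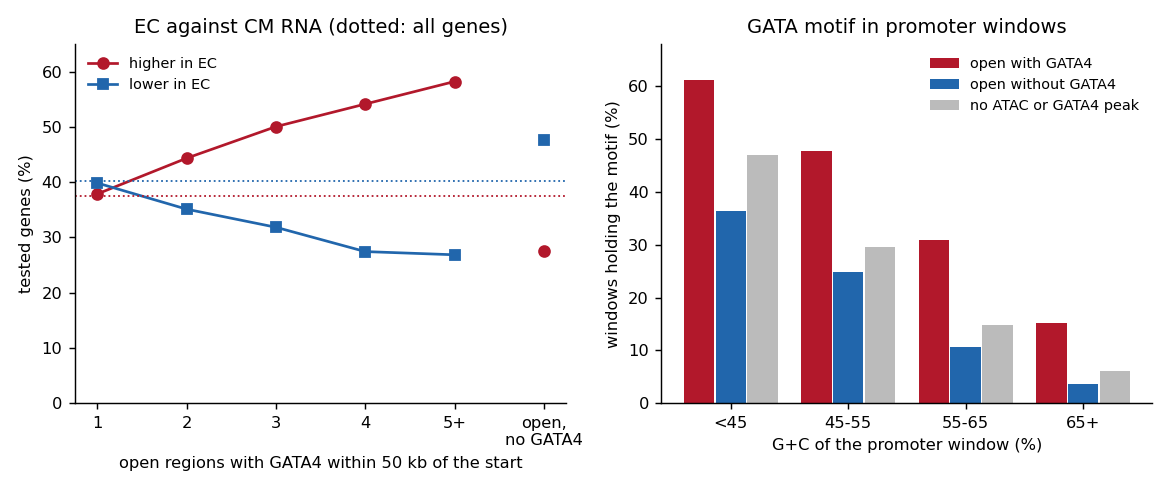
Left: percent of tested genes higher (circles) and lower (squares) in EC than in CM RNA by the number of open regions with GATA4 within 50 kb, with genes that had open regions without GATA4 only at the right and dotted lines at the values for all tested genes (37.5% and 40.2%); the share higher in EC reached 58.2% with 5 or more. Right: percent of promoter windows of 300 bases that hold GATAA or TTATC by G+C class, for open promoters with GATA4, open promoters without GATA4 and promoters with no peak; the bar with GATA4 is highest in all 4 classes.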

How the data were processed

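Peaks were deposited by the authors as 1 list per library on mm10, with a fold over background, a −log10 p and a −log10 q per peak; MACS2 stands in the peak names, and use of a control library is not given in the sources. RNA reads were counted per gene on the forward strand with featureCounts 1.6.3, per the file headers, and the counts deposited unscaled. MACS2 2.2.4, Bowtie 1.1.1, Bowtie2 2.2.9, STAR 2.7.3a and deepTools 3.3.1 are named in the submitters' processing notes without their roles. Deposited fold values were not compared between libraries; −log10 p ranked peaks within a list.

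Peaks sharing at least 1 bp were merged (Python 3.11.15, numpy 2.4.6, pandas 2.3.3, scipy 1.17.1, matplotlib 3.10.9); 7 or 8 mitochondrial peaks per GATA4 list were left out. Coordinates are mm10, counted from 1. A transcription start was the outermost 5′ exon end in the count table; 144 genes on several chromosomes or strands and 189 with copies apart were left out, leaving 24078 of 24421, and RefSeq symbols matched 99.6% of the latter. Counts were tested with edgeR 4.0.16 in R 4.3.3 (filterByExpr, TMM scaling, quasi-likelihood test, adjusted p threshold 0.05 by Benjamini-Hochberg), with DESeq2 1.42.0 as an alternative; standard errors are the log2 fold change over the root of F; RPKM values were computed from them with the table's exon lengths. RNA totals were 27660790 and 21682362 in EC and 48393473, 42948614 and 45522886 in CM. The ko and het libraries were compared by exact permutation over 20 splits.

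The classification and the count test were tested on simulated data. The members, gene lists and named items were chosen with earlier results of these data known. Named regions were the strongest by mean percentile in each class (6 within 1 kb, 6 farther, 5 not open, 5 without GATA4); named genes were up to 4 per list with the most open regions with GATA4, the 5 genes with the most, and all GATA genes and cofactors. ATAC of cardiomyocytes (2 samples) was not used here.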

Additional observations from a re-analysis of the deposited data

How the results depend on the processing

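With GATA4 in 3 of 3 libraries, 2.31% of open regions had GATA4, 95.4% of GATA4 regions were open, the width difference was 559 bp (61.6 bp within classes of ATAC strength), the promoter difference 0.564 percentage points (-11.7 within classes), and the difference of median distances 16370 bp. Genes with GATA4 were then higher in EC in 45.6% of cases, 18.04 points more than genes without. With lists of equal length these values were 2.32%, 96.8%, 500 bp, 28.4 bp, -1.93 points (the direction turned), -10.3 points and 15864 bp, 2.18% of GATA4 regions were not open, and 47.3% of genes were higher in EC, 11.9 points more. With fixed windows of 100 bp to each side of the ATAC summit (chosen after seeing the data) the width difference was 376 bp, and -5.20 bp within classes, and the promoter difference 0.775 points. With gene distances of 20 and 100 kb the gene difference was 11.4 and 16.9 points, against 14.2 at 50 kb.

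Leaving out each library in turn gave 2.33% to 12.54% of open regions with GATA4, 91.6% to 95.2% of GATA4 regions open and 3.01% to 7.97% not open. Width differences were 452 to 549 bp (43.3 to 55.6 bp within classes), promoter differences -0.74 to 8.26 points (-11.6 to -6.29 within classes), distance differences 6010 to 16647 bp, and gene differences 13.985 to 16.6 points, with 41.6% to 45.5% of genes with GATA4 higher in EC. Without GATA4 replicate 1 or 3 a region needed a peak in the short second list, and 2.41% and 2.33% of open regions had GATA4, with a promoter difference of 0.643 and -0.74. The gap between ko and het ranged from -0.69 to 2.97 points and was -0.25 with het and ko lists of equal length. Gata1 ranged from -0.43 to 0.19 on the log2 scale with its sign changing.

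Whether replicate numbers pair the samples is not given in the labels. Deviations from the group mean correlated at 0.116, 0.0496 and 0.190 between same-numbered ko and het libraries. Between differently numbered ones the correlations lay from -0.142 to 0.0376. Same-numbered EC and CM libraries had -0.02 and -0.01. With the replicate block the ko and het difference was 0.959 (exact sign-flip p = 0.25, the smallest 3 pairs allow), and 5248 genes were higher and 5729 lower in EC, against 5575 and 5972. In RNA the other scalings, tests and filters and leaving out each library gave 5163 to 5628 genes higher and 5438 to 6314 lower. Peak lists give no read totals, so the depth behind each list is unknown.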
